A study of Mus musculus with 29 samples.

Results

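Megakaryocyte and platelet-bias genes were taken here as Vwf, Itga2b, Pf4, Selp, Clec1b, Itgb3, Gp5, Gp9 and Gp1bb, which are 9 of the 30025 genes in the deposited table and were found by gene name. RNA-Seq libraries came from bone marrow stem and multipotent progenitor cells of WT and 5A3+/del mice, which lack 1 copy of a stretch of mouse chromosome 5 that corresponds to part of human 7q22. Each genotype and population had 5 libraries, apart from 4 in the CD150neg MPP of 5A3+/del mice, which made 29. The comparisons ask where along the CD150 gradient these genes are transcribed and whether the deletion alters their transcript levels.

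Both genotypes were on a C57BL/6J background, and the mice were 12.42 to 13.85 weeks old. The paper names WT littermates for other experiments, and the labels of these libraries do not give the litter. The deletion was made by Cre in ES cells with LoxP and HPRT sequences at Fbxl13 and Srpk2, and mice were derived from selected ES clones, so that the deletion in every 5A3+/del mouse traces to such clones. The sorted cells were c-kit positive, lineage negative and Sca-1 positive, without CD41 and CD48 on their surface, and were split by CD150 into CD150hi HSC, CD150lo HSC and CD150neg MPP, which the sample labels also call HSC. CD41 is the protein of Itga2b and CD150 the protein of Slamf1, so the sort acted on the product of a gene described here.

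Megakaryocytes are the bone marrow cells that release platelets, and a share of HSC is known to be primed toward this lineage and to transcribe megakaryocyte genes. Platelets adhere to a damaged vessel wall when the GPIb-IX-V receptor binds von Willebrand factor, and aggregate when the integrin GPIIb/IIIa binds fibrinogen. Their granules hold von Willebrand factor, platelet factor and P-selectin, which reach the surface or the plasma on activation.

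Levels are FPKM as deposited, that is, fragments scaled to the exon length of the gene and the depth of the library. Between 21230021 and 38799515 fragments underlay each library, with a median of 26969192, as read from the steps of low values. Amplified fragments are not independent molecules, so counts of fragments cover counting error only. Differences are on the scale of quantile-normalized log2(FPKM + 1), where the added 1 shrinks differences between small values. They were tested with limma over 15409 genes, with Benjamini-Hochberg adjustment and a threshold of 0.05. For the members this made 96 tests, from 8 tested members and 12 comparisons.

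Mll5, a gene of the deleted interval, was used as a check of the genotype labels. Its FPKM ranged from 37.9 to 48.5 in WT and from 19.9 to 28.8 in 5A3+/del CD150hi HSC, from 37.3 to 48.9 and 21.9 to 29.1 in CD150lo HSC, and from 46.2 to 58.1 and 23.5 to 32.4 in CD150neg MPP, without overlap between genotypes in any population. Slamf1 checked the CD150 gate. It had a mean of 14.4, 1.62 and 0.146 FPKM in WT CD150hi HSC, CD150lo HSC and CD150neg MPP, and of 16.1, 0.957 and 0.0698 FPKM in 5A3+/del mice. WT replicate 3 stood apart in Xist, the transcript of the inactive X chromosome, with 302.7, 233.7 and 319 FPKM in its 3 libraries and at most 0.470 FPKM in every other library. Sex is not given in the labels used here. Without that mouse, the number of members that passed the test went from 4 to 3 in 5A3+/del CD150hi HSC against CD150neg MPP and was the same in the other comparisons.

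The members spanned a wide range of levels. Over all 29 libraries the median was 18.6 FPKM for Pf4, 7.76 for Gp9, 3.91 for Itgb3, 1.98 for Itga2b, 1.89 for Selp, 0.874 for Vwf, 0.848 for Gp5 and 0.180 for Clec1b, and Gp1bb was listed at 0 in at least 1 library of every group. Pf4 and Gp9 reached 1 FPKM in all 29 libraries, Itga2b in 28, Itgb3 in 27, Selp in 21, Gp5 in 12, Vwf in 10 and Clec1b in 6. The filter asked for 1 FPKM in 4 libraries, and all libraries with which Vwf and Clec1b met it were from CD150hi HSC. Both therefore had to be higher in that population, and their calls describe these libraries without adding support. Gp1bb did not meet the filter and was not tested.

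**Figure D1:**
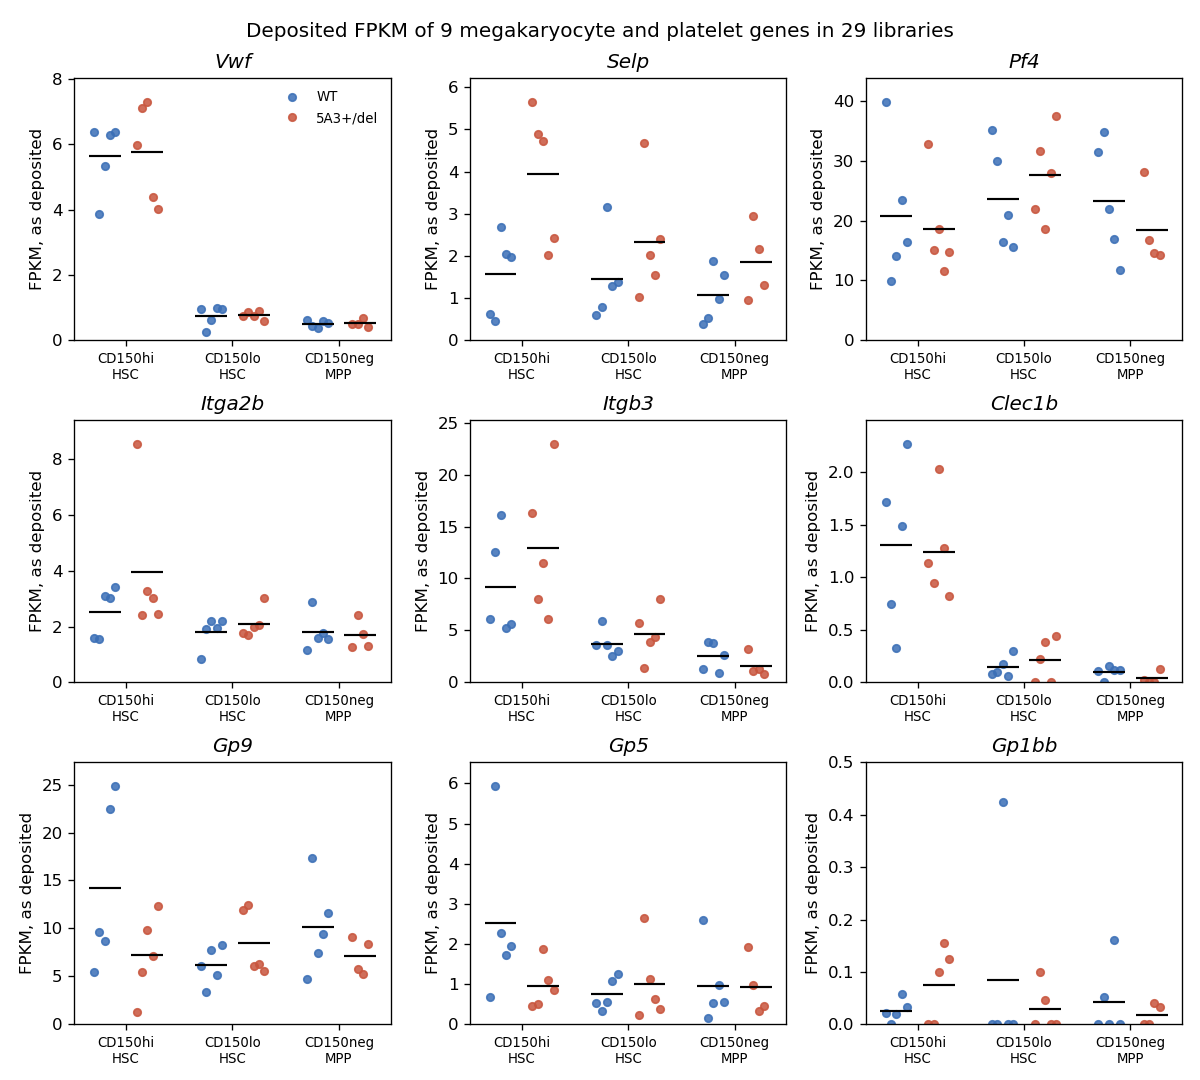
Deposited FPKM of the 9 genes by population, with 1 point per library, WT in blue, 5A3+/del in red and a bar at the group mean, on a linear axis from 0 that differs between panels. Vwf lies between 3.85 and 7.28 FPKM in CD150hi HSC and under 1 FPKM elsewhere, whereas Pf4 lies between 9.84 and 39.7 FPKM with overlap of all groups.

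Vwf encodes von Willebrand factor, the large adhesive protein that ties platelets to collagen, and is a known mark of platelet-biased HSC. In WT CD150hi HSC its levels in replicates 1 to 5 were 6.36, 3.85, 5.33, 6.28 and 6.37 FPKM, against 0.959, 0.252, 0.625, 0.994 and 0.946 FPKM in CD150lo HSC and 0.610, 0.429, 0.370, 0.606 and 0.541 FPKM in CD150neg MPP. Those of 5A3+/del mice were 5.99, 7.11, 7.28, 4.38 and 4.01 FPKM in CD150hi HSC, 0.755, 0.874, 0.744, 0.905 and 0.583 FPKM in CD150lo HSC and 0.511, 0.504, 0.672 and 0.414 FPKM in CD150neg MPP. Every CD150hi library was above every other library, and both genotypes overlapped within each population. CD150lo HSC and CD150neg MPP also overlapped. The WT mean of 5.64 ± 1.09 FPKM (SD, n = 5) in CD150hi HSC was 7.47 times that of CD150lo HSC (log2 difference 1.95, SE 0.15, limma adjusted p = 1.63e-09) and 11.0 times that of CD150neg MPP (log2 difference 2.16, limma adjusted p = 5.52e-11), with the same direction in 5 of 5 mice each. The 5A3+/del mean of 5.75 ± 1.51 FPKM (n = 5) was 7.45 times that of CD150lo HSC (log2 difference 1.97, limma adjusted p = 1.01e-09, 5 of 5 mice) and 11.0 times that of CD150neg MPP (log2 difference 2.13, limma adjusted p = 3.21e-10, 4 of 4 mice). Over all alternatives the log2 difference against CD150neg MPP ran from 2.12 to 3.40 in WT and from 2.07 to 3.31 in 5A3+/del mice. In bulk RNA, fewer cells that transcribe a gene and less RNA per cell cannot be told apart.

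Selp encodes P-selectin, the adhesion receptor of platelet granules and of endothelial cells. In WT mice its levels were 0.619, 0.470, 2.70, 2.05 and 1.98 FPKM in CD150hi HSC, 0.607, 0.788, 3.16, 1.28 and 1.39 FPKM in CD150lo HSC and 0.384, 0.542, 1.89, 0.984 and 1.55 FPKM in CD150neg MPP. The 5A3+/del levels were 5.64, 4.90, 4.73, 2.02 and 2.42 FPKM in CD150hi HSC, 1.02, 4.69, 2.03, 1.55 and 2.40 FPKM in CD150lo HSC and 0.967, 2.95, 2.17 and 1.32 FPKM in CD150neg MPP. WT replicates 1 and 2 were the lowest and WT replicate 3 the highest of the WT mice in every population, and all groups overlapped with their neighbours. The 5A3+/del means of 3.94, 2.34 and 1.85 FPKM were ahead of the WT means of 1.56, 1.44 and 1.07 FPKM in the order of levels. The genotypes differed by 0.91 on the log2 scale in CD150hi HSC (SE 0.30, unadjusted p = 0.00548 and adjusted p = 0.186 from limma), which did not pass the threshold. Over the alternatives the adjusted p of this limma test ran from 0.106, without WT replicate 3, to 0.439. In 5A3+/del mice CD150hi HSC exceeded CD150neg MPP in 4 of 4 mice by a log2 difference of 0.77 (limma adjusted p = 0.186), and by 0.82 with the mouse as a block (limma adjusted p = 0.0219, with ranges over all alternatives of 0.0219 to 0.620 and, for the log2 difference, 0.49 to 1.05).

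Pf4 encodes platelet factor 4, a chemokine of the platelet granule, and had the highest mean of the 9 genes in every group. Its group means were 27.5 ± 7.56 FPKM (SD, n = 5) in 5A3+/del CD150lo HSC, 23.6 ± 8.61 (n = 5) in WT CD150lo HSC, 23.3 ± 9.67 (n = 5) in WT CD150neg MPP, 20.7 ± 11.7 (n = 5) in WT CD150hi HSC, 18.6 ± 8.34 (n = 5) in 5A3+/del CD150hi HSC and 18.4 ± 6.52 (n = 4) in 5A3+/del CD150neg MPP. All neighbours in this order overlapped, and single libraries of a group differed by up to 4-fold, as between 9.84 and 39.7 FPKM in WT CD150hi HSC. In 5A3+/del mice the log2 difference was -0.60 between CD150hi and CD150lo HSC, with the CD150hi library higher in 2 of 5 mice (limma adjusted p = 0.448), and 0.61 between CD150lo HSC and CD150neg MPP, higher in 3 of 4 mice (limma adjusted p = 1). Neither passed the threshold.

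Itgb3 encodes the beta subunit of the fibrinogen receptor GPIIb/IIIa, and is also used by the vitronectin receptor of other cells. Its levels in WT mice were 6.11, 12.5, 16.1, 5.27 and 5.67 FPKM in CD150hi HSC, 3.61, 5.88, 3.61, 2.56 and 3.07 FPKM in CD150lo HSC and 1.25, 3.91, 3.81, 0.913 and 2.63 FPKM in CD150neg MPP. For 5A3+/del mice the levels were 16.3, 8.07, 11.5, 6.08 and 22.9 FPKM in CD150hi HSC, 5.76, 1.37, 3.89, 4.32 and 7.98 FPKM in CD150lo HSC and 3.21, 1.08, 1.25 and 0.798 FPKM in CD150neg MPP. Group means were highest in CD150hi HSC and lowest in CD150neg MPP in both genotypes, without overlap between these populations, and with overlap between CD150lo HSC and CD150neg MPP. CD150hi HSC exceeded CD150neg MPP by 1.54 on the log2 scale in WT (SE 0.38, limma adjusted p = 0.00737, 5 of 5 mice) and by 2.43 in 5A3+/del mice (SE 0.40, limma adjusted p = 0.000149, 4 of 4 mice). The difference between these differences was 0.89 (SE 0.55, limma adjusted p = 0.706) and did not pass the threshold. CD150hi exceeded CD150lo HSC in 5 of 5 mice by 0.98 in WT (limma adjusted p = 0.194) and in 5 of 5 mice by 1.29 in 5A3+/del mice (limma adjusted p = 0.0580). With the mouse as a block the limma adjusted p was 0.00447 in WT and 0.000354 in 5A3+/del mice, with ranges over all alternatives of 0.00447 to 0.421 and 0.000354 to 0.195.

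Itga2b encodes the alpha subunit of GPIIb/IIIa, the CD41 antigen that the sort removed. WT levels were 1.58, 1.54, 3.10, 3.03 and 3.43 FPKM in CD150hi HSC, 0.836, 1.92, 2.21, 1.94 and 2.20 FPKM in CD150lo HSC and 1.16, 2.89, 1.60, 1.76 and 1.57 FPKM in CD150neg MPP. Levels in 5A3+/del mice were 8.53, 2.43, 3.27, 3.04 and 2.45 FPKM in CD150hi HSC, 1.78, 1.68, 1.98, 2.04 and 3.02 FPKM in CD150lo HSC and 1.28, 2.41, 1.73 and 1.31 FPKM in CD150neg MPP. Replicate 1 of 5A3+/del CD150hi HSC was far above all other libraries, and neighbours in the order of group means overlapped. CD150hi HSC exceeded CD150neg MPP in 5A3+/del mice by 0.78 on the log2 scale (SE 0.24, limma adjusted p = 0.0485, 4 of 4 mice). This call was kept in 3 of 17 alternatives. The limma adjusted p was 0.340 with a log2 difference of 0.45 without 5A3+/del replicate 1, 0.0624 without WT replicate 3 and 0.0670 with the mouse as a block, and it ran from 0.0336 to 0.340 over all alternatives. In WT the same difference was 0.38 (limma adjusted p = 0.337, 4 of 5 mice).

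Gp9, Gp5 and Gp1bb encode subunits of the GPIb-IX-V receptor for von Willebrand factor. Gp9 was at 5.47, 9.59, 8.74, 22.5 and 24.8 FPKM in WT and at 1.25, 5.44, 9.82, 7.10 and 12.3 FPKM in 5A3+/del CD150hi HSC. Replicates 4 and 5 of WT lay above all 5A3+/del libraries and the other WT replicates overlapped with them. The log2 difference between genotypes was -0.86 (SE 0.40, unadjusted p = 0.0420 and adjusted p = 0.365 from limma), and -0.50 without 5A3+/del replicate 1. In the other groups Gp9 ranged from 3.42 to 17.4 FPKM. CD150hi exceeded CD150lo HSC by 0.93 in WT (limma adjusted p = 0.270, 4 of 5 mice). In 5A3+/del mice this difference was -0.30 (limma adjusted p = 0.825, CD150hi higher in 3 of 5 mice). The genotype difference of this step was -1.23 (SE 0.57, limma adjusted p = 0.999), and -0.73 without 5A3+/del replicate 1. Against CD150neg MPP, CD150hi HSC differed by 0.40 in WT (limma adjusted p = 0.622, 4 of 5 mice) and by -0.09 in 5A3+/del mice (limma adjusted p = 0.959, 1 of 4 mice).

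Gp5 was at 0.685, 5.93, 2.27, 1.73 and 1.95 FPKM in WT and at 0.462, 0.498, 1.87, 1.105 and 0.848 FPKM in 5A3+/del CD150hi HSC, and ranged from 0.147 to 2.66 FPKM in the other groups, so that all groups overlapped. The genotype difference in CD150hi HSC was -0.65 (SE 0.32, limma adjusted p = 0.395), with -0.99 to -0.34 over all alternatives. The log2 difference between CD150hi and CD150lo HSC was 0.85 in WT (limma adjusted p = 0.186, 5 of 5 mice). In 5A3+/del mice it was 0.13 (limma adjusted p = 0.915, 4 of 5 mice). WT CD150hi HSC exceeded CD150neg MPP by 0.83 in 4 of 5 mice (limma adjusted p = 0.110). Without WT replicate 1 this value was 1.25 (limma adjusted p = 0.0177, with ranges over all alternatives of 0.0177 to 0.542 and, for the log2 difference, 0.40 to 1.54). Gp1bb had between 0 and 9 fragments in every library except replicate 3 of WT CD150lo HSC, where 20 fragments gave 0.424 FPKM. Of the other subunits, Gp1ba was present, with a mean of 3.92, 3.08 and 2.70 FPKM in WT CD150hi HSC, CD150lo HSC and CD150neg MPP and of 4.70, 3.16 and 3.25 FPKM in 5A3+/del mice. Its log2 difference between CD150hi and CD150lo HSC was 0.29 in WT, higher in 4 of 5 mice, and 0.45 in 5A3+/del mice, higher in 5 of 5 (limma adjusted p = 0.581 and 0.307).

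Clec1b encodes CLEC2, the platelet receptor for podoplanin. In WT mice its levels were 1.72, 0.743, 0.324, 1.49 and 2.27 FPKM in CD150hi HSC, 0.0808, 0.0964, 0.180, 0.0596 and 0.298 FPKM in CD150lo HSC and 0.111, 0, 0.160, 0.119 and 0.121 FPKM in CD150neg MPP. Among 5A3+/del mice they were 1.13, 0.949, 2.03, 1.28 and 0.822 FPKM in CD150hi HSC, 0.00798, 0.223, 0.383, 0 and 0.443 FPKM in CD150lo HSC and 0.0239, 0, 0.00740 and 0.131 FPKM in CD150neg MPP. Within each genotype all CD150hi libraries were above the others, and CD150lo HSC and CD150neg MPP overlapped. As fragments per library, CD150hi HSC had 45 to 365 (WT) and 124 to 275 (5A3+/del), and CD150neg MPP had 0 to 27 and 0 to 21. The log2 difference between CD150hi and CD150lo HSC was 0.98 in WT (SE 0.17, limma adjusted p = 0.000749, 5 of 5 mice) and 0.95 in 5A3+/del mice (limma adjusted p = 0.000998, 5 of 5 mice). Against CD150neg MPP it was 1.01 in WT (limma adjusted p = 0.000223, 5 of 5 mice) and 1.07 in 5A3+/del mice (limma adjusted p = 0.000261, 4 of 4 mice). Fitting only the groups compared gave an adjusted p of 0.0641 for CD150hi against CD150lo HSC in WT with limma, and all other alternatives for this difference passed, from 4.10e-06 upward. A pseudocount of 0.1 gave log2 differences of 2.56 in WT and 2.55 in 5A3+/del mice against CD150lo HSC, and of 2.71 and 3.12 against CD150neg MPP.

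Counted over the 8 tested members, 2 were higher and 0 lower in WT CD150hi than CD150lo HSC, where 544 of 15409 genes (3.53%) passed. In WT CD150hi HSC against CD150neg MPP 3 were higher and 0 lower, where 1548 genes (10.0%) passed. The corresponding counts in 5A3+/del mice were 2 (490 genes, 3.18%) and 4 (949 genes, 6.16%). The median log2 difference of the tested members was 0.89 and 0.61 in WT and 0.57 and 0.78 in 5A3+/del mice, against medians within 0.01 of 0 over all genes. Since Vwf and Clec1b entered the test only through CD150hi HSC, these numbers are a description. Between CD150lo HSC and CD150neg MPP limma called 0 members in WT (29 genes, 0.188%) and 0 in 5A3+/del mice (6 genes, 0.0389%), with 0 and 1 members at an unadjusted p under 0.05, against 1349 and 763 of all genes.

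Between genotypes limma called 0 members in CD150hi HSC (24 genes, 0.156%), 0 in CD150lo HSC (5 genes, 0.0324%) and 0 in CD150neg MPP (7 genes, 0.0454%). At an unadjusted p under 0.05 there were 2, Selp and Gp9, in CD150hi HSC and 0 in both other populations, against 2018, 1059 and 658 of all 15409 genes along the CD150 gradient. The genotype difference of the steps between populations gave 0 members, against 0 of 15409 genes (0%) in each of the 3 tests, with 1, 0 and 0 members at an unadjusted p under 0.05 from CD150hi to CD150lo HSC, CD150lo HSC to CD150neg MPP and CD150hi HSC to CD150neg MPP, against 614, 771 and 1227 of all genes. A p above the threshold does not show that levels were equal.

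**Figure D2:**
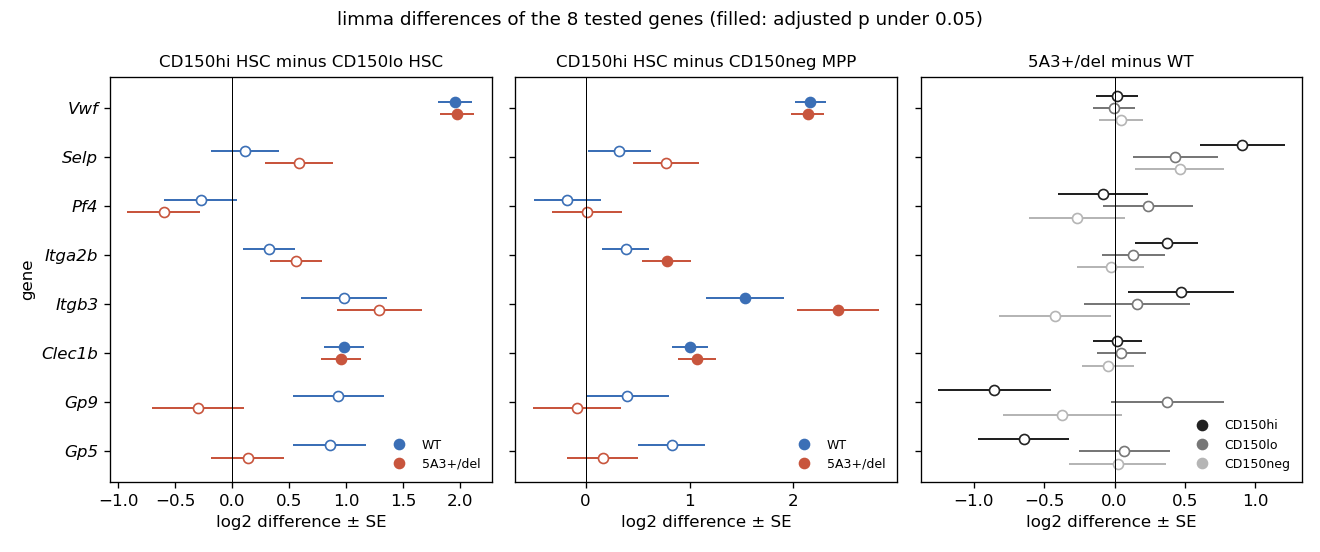
Differences of the 8 tested genes on the log2(FPKM + 1) scale with their SE from limma, between populations of each genotype and between genotypes of each population, with filled points for an adjusted p under 0.05. Vwf is near 2 in both genotypes in the left and middle panels, from 1.95 to 2.16, and no point is filled in the panel of genotypes.

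Other genes of platelets and megakaryocytes were described with lists of 24 surface and signalling genes, 23 granule and cytoskeleton genes and 15 transcription factors, of which 21, 18 and 14 were tested. In WT CD150hi HSC against CD150lo HSC, limma called 2 surface genes higher and 1 lower, 6 granule genes higher and 2 lower, and 4 transcription factors higher and 0 lower. Against CD150neg MPP these counts were 7 and 2, 7 and 1, and 5 and 0. In 5A3+/del mice they were 4 and 1, 7 and 1, and 4 and 0 against CD150lo HSC, and 5 and 3, 8 and 1, and 6 and 0 against CD150neg MPP. Of all 15409 genes, 3.53% and 10.0% were called in these 2 comparisons in WT, and 3.18% and 6.16% in 5A3+/del mice. The median log2 difference in WT against CD150neg MPP was 0.08, -0.02 and 0.27 for the 3 lists. At an unadjusted p under 0.05 from limma there were 14 of 21, 10 of 18 and 9 of 14, against 3362 of all 15409 genes. Treml1, Sdpr and Clu met the filter only with the help of CD150hi libraries and Slc35d3 only with that of the others, so the filter favoured their direction and the counts that hold them are a description.

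Among granule genes, Sdpr, also called serum deprivation response, had a mean of 0.273 FPKM in WT CD150lo HSC and 9.75 FPKM in CD150hi HSC (log2 difference 3.10, limma adjusted p = 9.21e-11, 5 of 5 mice). The log2 difference in 5A3+/del mice was 2.72 (limma adjusted p = 1.01e-09, 5 of 5 mice). Clu, which encodes clusterin, differed by 1.72 in WT and 1.77 in 5A3+/del mice, with at least 1 FPKM in all 10 CD150hi libraries and in 0 others. Mmrn1, which encodes the factor V binding protein multimerin, passed the filter in every population and rose by 1.09 and 1.05, in 5 of 5 mice of each genotype. Mmrn1 was abundant, with a mean of 72.2 FPKM in WT CD150hi HSC. Slc35d3, a gene of platelet dense granules, went the other way, from 4.24 to 0.756 FPKM (log2 difference -1.67, limma adjusted p = 0.000579, lower in 5 of 5 mice). Between WT CD150lo HSC and CD150neg MPP, Mmrn1 and Gng11 were higher by 0.62 and 0.82 in 5 of 5 mice each (limma adjusted p = 0.0227 and 0.0323). Slamf1 differed by 1.13 in the same comparison in 5 of 5 mice (limma adjusted p = 0.0227). None of the 3 passed with the mouse as a block. Over all alternatives the limma adjusted p ran from 0.0130 to 0.2502 for Mmrn1, from 0.0124 to 0.2502 for Gng11 and from 0.000426 to 0.193 for Slamf1.

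Among surface and signalling genes, Plek, which encodes pleckstrin, a substrate of protein kinase C in platelets, was lower in CD150hi than CD150lo HSC, by -1.45 in WT and -1.27 in 5A3+/del mice (limma adjusted p = 1.76e-05 and 0.00013, lower in 5 of 5 mice each). Against CD150neg MPP, 7 genes of this list were called higher and 2 lower in WT CD150hi HSC. Cd9 was higher by 1.05 and Tbxa2r differed by -1.47 (limma adjusted p = 0.000645 and 0.0006155). In 5A3+/del mice 5 were called higher and 3 lower. Cd9, P2ry1 and P2rx1 were higher there by 1.05, 1.55 and 0.98 (limma adjusted p = 0.00162, 0.000369 and 0.00171), and Plek differed by -1.715. Gp6, the collagen receptor, had at most 2 fragments in any library.

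Among transcription factors, Gfi1b, a repressor needed for platelet formation, rose from 10.8 to 30.3 FPKM between CD150lo and CD150hi HSC of WT mice (log2 difference 1.36, limma adjusted p = 0.00297, 5 of 5 mice) and from 6.69 to 18.2 FPKM in 5A3+/del mice (log2 difference 1.26, limma adjusted p = 0.00637, 5 of 5 mice). Fitting the latter under all alternatives gave adjusted p values from 7.12e-05 to 0.0785 with limma. Gata2, a factor of early progenitors, had means of 102 and 40.8 FPKM in WT CD150hi HSC and CD150neg MPP (log2 difference 1.33, limma adjusted p = 6.41e-07, 5 of 5 mice). Gata1, the factor that drives late megakaryocyte and erythroid genes, had a mean of at most 0.442 FPKM in any group. Fli1, an ETS factor of the lineage, had means between 45.3 and 64.9 FPKM and passed in none of the comparisons of CD150hi HSC with CD150lo HSC or CD150neg MPP. Of the granule and cytoskeleton list, Tubb1, the platelet tubulin, and Myl9, a platelet myosin light chain, were named after their values were seen. They had group means of at most 0.307 and 0.00748 FPKM. Other platelet genes were higher, as Pf4 with group means from 18.4 to 27.5 FPKM and Gp9 with 6.14 to 14.2 FPKM.

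**Figure D3:**
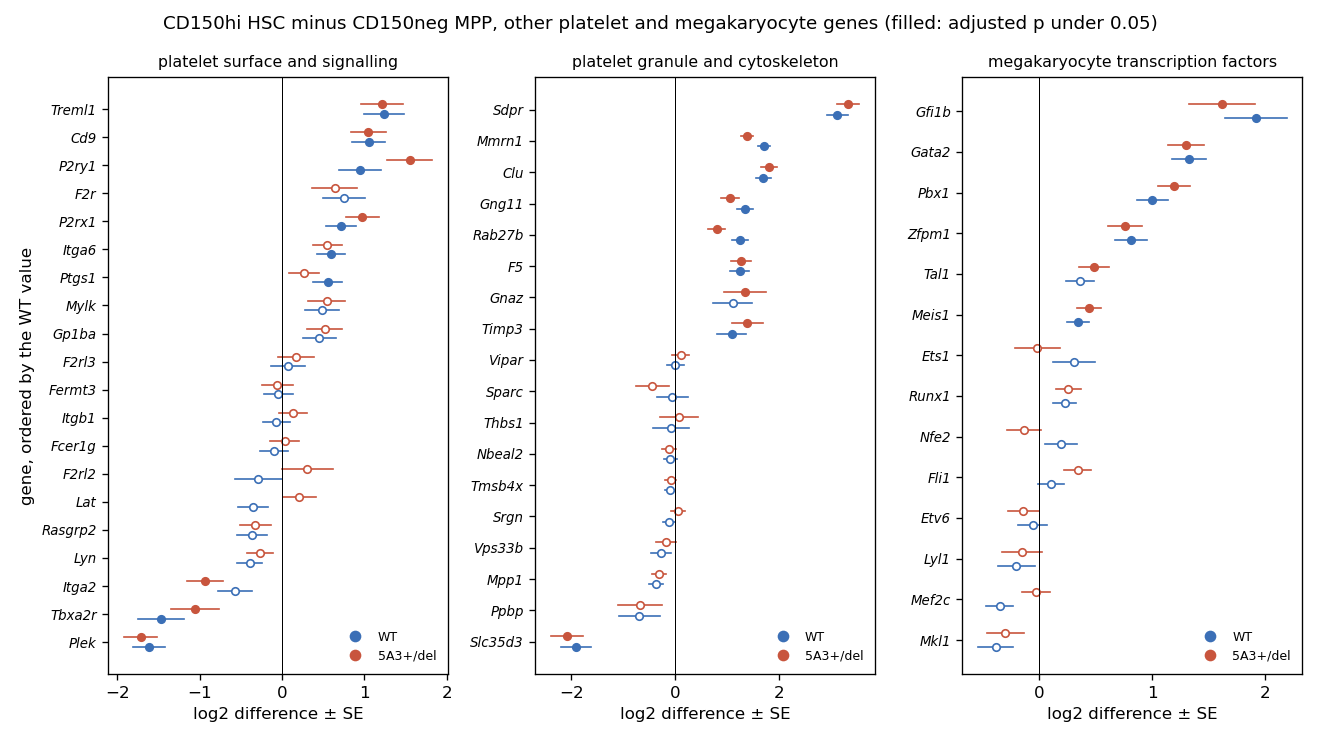
Differences between CD150hi HSC and CD150neg MPP with their SE from limma for tested genes of 3 lists, ordered by the WT value, with WT in blue, 5A3+/del in red and filled points for an adjusted p under 0.05. Sdpr reaches 3.12 in WT and 3.34 in 5A3+/del mice, whereas Plek lies at -1.62 and -1.71.

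Endothelial cells also make Vwf and Selp, and lists of markers of other cells were therefore read beside the members. Of 20 endothelial markers 13 were tested, and 4 were higher and 0 lower in WT CD150hi than CD150lo HSC, with summed means of 159.55 and 119.42 FPKM and 119.75 FPKM in CD150neg MPP. Of all genes, 3.53% were called in this WT comparison and 3.18% in that of 5A3+/del mice. In 5A3+/del mice 5 endothelial markers were higher and 1 lower, with sums of 168.17, 128.92 and 130.19 FPKM. Of these 5, Kdr met the filter only through 4 CD150hi libraries, which favoured its direction, and it was called in 4 of 13 alternatives. Eng was the most abundant of them, with 48.9 FPKM in WT CD150hi HSC, and Esam, Tek, Tie1 and Sox18 were those that passed in WT, of which Esam was also in the stem cell list. In WT CD150hi HSC 10 of the 20 had a mean under 1 FPKM, among them Cdh5 with 0.214 FPKM. Pecam1, Emcn and Robo4, named after their values were seen, had means of 12.4, 7.86 and 20.7 FPKM there, of 12.5, 8.60 and 15.2 FPKM in CD150lo HSC and of 14.7, 8.86 and 16.0 FPKM in CD150neg MPP. The part of endothelial cells in the levels of the members was not tested.

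Granulocyte and monocyte markers, 14 genes of which 12 were tested, varied between libraries. Their summed FPKM in WT was 1139.2, 557.89, 292.3, 342.66 and 519.44 in CD150hi HSC, 1704.9, 340.57, 214.27, 501.9 and 415.42 in CD150lo HSC, and 308.4, 266.81, 250.99, 293.57 and 256.49 in CD150neg MPP. The sums in 5A3+/del mice were 244.57, 346.24, 269.91, 230.45 and 232.72 in CD150hi HSC, 238.25, 368.22, 627.56, 472.11 and 421.72 in CD150lo HSC, and 213.01, 309.16, 539.39 and 337.88 in CD150neg MPP. Replicate 1 of WT was the highest in each WT population, and in CD150hi and CD150lo HSC it also had the highest Pf4 of the WT mice, with 39.7 and 35.1 FPKM. Lyz2 was the most abundant in 5 of the 6 groups and S100a8, named after its values were seen, in WT CD150lo HSC, where replicate 1 had 737 FPKM and the others 62.0, 6.30, 111 and 93.6 FPKM, so that its rank rested on that library. Elane, a defining marker also named then, was at 19.1, 0, 0.160, 0.0793 and 1.59 FPKM in WT CD150hi HSC and at most 0.287 FPKM in 5A3+/del CD150hi HSC. Ngp and Camp, also named then, were at 110, 20.9, 12.9, 6.02 and 16.9 FPKM and at 64.0, 13.4, 2.32, 5.64 and 10.1 FPKM in WT CD150hi HSC, and at most 2.45 and 4.48 FPKM in 5A3+/del CD150hi HSC. All WT libraries were above all 5A3+/del libraries in Ngp, and 4 of 5 in Camp. How many of all genes separate the genotypes in this way was not counted. Lyz2 had means of 179 FPKM in WT and 194 FPKM in 5A3+/del CD150hi HSC, so its direction was the opposite. Libraries of both genotypes overlapped there in Lyz2 and in Prtn3, a marker of the same list also named then. In CD150hi HSC limma called 0 of 12 between genotypes, with 5 at an unadjusted p under 0.05 (2018 of all genes) and a median log2 difference of -1.07. Against CD150neg MPP 1 of 12, Ltf, was higher in WT CD150hi HSC by 1.39 on the log2 scale in 5 of 5 mice (limma adjusted p = 0.0327, with a range of 0.00949 to 0.183 over all alternatives). In that comparison 10.0% of all genes passed. The lineage antibodies of the sort included Gr-1, a granulocyte antigen, and cells were first enriched for c-kit. The part of such cells in the levels of the members was not tested.

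Of 16 erythroid markers 11 were tested and 0 passed in any comparison with limma, with 6 at an unadjusted p under 0.05 between WT CD150hi and CD150lo HSC, against 2175 of all genes. Car2 was the most abundant. Of 14 lymphoid markers 6 were tested, and Flt3, Ighm and Dntt were lower in CD150hi HSC than in CD150lo HSC and CD150neg MPP of both genotypes, where Ighm and Dntt met the filter only through libraries other than CD150hi. Flt3, for example, had 2.86 FPKM in WT CD150hi HSC and 29.4 FPKM in CD150lo HSC (log2 difference -2.98, limma adjusted p = 5.17e-11, lower in 5 of 5 mice). All 15 stem cell markers were tested, and 8 were higher and 3 lower in WT CD150hi than CD150lo HSC, among the higher Slamf1, the gene of the CD150 gate. Those lower were Flt3, Cd34 and Cd48. The product of Cd48 was gated out as well, and the gene met the filter only with the help of libraries other than CD150hi, so that the filter favoured its direction. Counts in 5A3+/del mice were 7 and 3, where 3.18% of all genes passed, against 3.53% in WT. Limma called 0 genes of any of the 8 lists between genotypes, where between 0 and 5 genes of a list had an unadjusted p under 0.05.

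Likeness was described by Pearson's r of log2 values over the 29 libraries, which share mice and populations. Vwf was most like Clu (0.970), Neo1 (0.968) and Slamf1 (0.948), and Clec1b most like Clu (0.931), Vwf (0.904) and Slc16a5 (0.901). Itgb3 was most like Sult1a1 (0.904), Usp54 (0.886) and Serpina3g (0.881), and Itga2b most like Fam115a (0.834), Zeb2 (0.777) and Fut8 (0.765). For Selp these were Psat1 (0.729), Rpn1 (0.721) and Gatm (0.720), and for Pf4 U2af2 (0.701), Stox1 (0.698) and Fbxl6 (0.685). Gp5 was most like Plxna4 (0.789), Gm15382 (0.744) and Tyw3 (0.715), and Gp9 most like Gstt3 (0.699), Nfatc2ip (0.660) and 1810029B16Rik (0.638). Between members, r was 0.693 for Vwf and Itgb3, 0.596 for the receptor partners Itga2b and Itgb3, and 0.185 for Gp5 and Gp9. Pf4 had an r between -0.260 and 0.013 with each of the other tested members.

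The members lie on several chromosomes of mm9. Vwf (125496792 to 125636697), Clec1b (129347315 to 129359353) and Gp9 (87728130 to 87729756) are on the plus strand of chromosome 6. Itga2b (102314611 to 102331436, minus) and Itgb3 (104469370 to 104531790, plus) are on chromosome 11, Gp5 (30307772 to 30310865) and Gp1bb (18620412 to 18622496) on the minus strand of chromosome 16, and Selp (166045395 to 166080157, plus) on chromosome 1. Pf4 (91201461 to 91202407, plus) is on chromosome 5 but outside the deletion, whose flanking genes Fbxl13 and Srpk2 span 20989665 to 21151423 and 23009174 to 23182266.

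Parts of some members are shared with other genes, and how fragments of shared stretches were counted is not given in the sources used here. The exons of Gp1bb overlap those of Sept5 on the same strand over 593 bp (31.53% of its exon length). Those of Clec1b overlap Clec9a over 184 bp (3.61%) on the same strand, and Clec9a, named for this overlap, had WT means of 4.55, 1.03 and 0.0700 FPKM in order of falling CD150. Clec1b also lies within the span of Clec1a on the opposite strand, with 0 bp of exon overlap. Clec1a ranged from 7.03 to 17.6 FPKM in WT CD150hi HSC and from 0.409 to 2.98 FPKM in WT CD150neg MPP. Selp overlaps the antisense genes Gm16587 over 186 bp (4.21%) and Gm16548 over 438 bp (9.93%), and fragments from both strands cannot be told apart in these libraries, which do not mark strand.

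Promoter stretches of 300 bases were available from RefSeq (GRCm38.p6) for 7 of the 9 members, and Vwf and Itgb3 had no entry. The letters AGATAA and TGATAA, bound by GATA factors, were found on either strand in 3 of the 7 (Pf4, Clec1b and Gp5) and in 18.6% of all 32851 promoters. The letters AGGAAG and CGGAAG, bound by ETS factors, were found in 6 of the 7, all but Clec1b, and in 46.5% of all promoters. The span that RefSeq gives for Gp9 starts upstream of its stretch, unlike those of the other 6. A match is a description of the letters only. The stretches of Clec1b, which passed in CD150hi HSC of both genotypes, of Itga2b, whose protein was gated, and of Pf4, the most abundant member, are given 5′ to 3′ with these letters in capitals, and each begins 250 bases before the annotated start. They are chr6:129397047-129397346 on the plus strand for Clec1b, chr11:102469834-102470133 on the minus strand for Itga2b and chr5:90772185-90772484 on the plus strand for Pf4.
Clec1b: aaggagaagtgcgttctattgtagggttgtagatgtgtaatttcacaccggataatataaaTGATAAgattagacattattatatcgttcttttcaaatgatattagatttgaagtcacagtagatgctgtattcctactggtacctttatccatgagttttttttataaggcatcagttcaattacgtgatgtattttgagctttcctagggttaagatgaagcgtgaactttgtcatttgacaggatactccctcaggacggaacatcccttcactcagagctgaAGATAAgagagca
Itga2b: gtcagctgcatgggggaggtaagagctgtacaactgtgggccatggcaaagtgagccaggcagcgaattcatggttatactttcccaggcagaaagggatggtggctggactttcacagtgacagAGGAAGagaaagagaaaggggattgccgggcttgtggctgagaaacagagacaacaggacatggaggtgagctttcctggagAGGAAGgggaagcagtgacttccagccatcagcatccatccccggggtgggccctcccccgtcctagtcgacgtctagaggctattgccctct
Pf4: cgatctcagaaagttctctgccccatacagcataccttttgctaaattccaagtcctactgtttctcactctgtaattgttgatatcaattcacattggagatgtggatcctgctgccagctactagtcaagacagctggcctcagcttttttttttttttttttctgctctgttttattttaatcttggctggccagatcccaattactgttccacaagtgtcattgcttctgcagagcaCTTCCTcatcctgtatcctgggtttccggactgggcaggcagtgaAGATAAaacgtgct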

How the data were processed

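Total RNA of sorted cells was amplified with the Ovation system, made into TruSeq libraries that do not mark strand and sequenced in pairs. The submitters' processing notes name mm9, Bowtie version 0.12.2 and HTSeq. The authors deposited a table of FPKM for 30025 genes in 29 libraries. The study's own measure, the coverage of a single exon per gene, is another quantity and was not used here. Members and lists were chosen with earlier results of these data known.

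From the deposited FPKM, genes with at least 1 FPKM in at least 4 libraries (15409) entered the test after log2(FPKM + 1) and quantile normalization. A linear model with a mean for each of 6 groups was fitted to the 29 libraries with limma (version 3.58.1, R version 4.3.3). Its 12 contrasts were tested, two-sided, with Benjamini-Hochberg adjustment over all genes tested. The steps were tested on simulated data. Exon lengths came from the GENCODE annotation of mm9, to which 29279 identifiers matched, and 98.4% to 98.91% of values under 20 fragments were within 0.05 of a whole number.

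Libraries of different populations of the same mouse were paired by the mouse code of the labels, while WT and 5A3+/del libraries with the same replicate number are from different mice. Residuals of the same mouse correlated with a median r of 0.0786 (28 pairs), against -0.025 (112 pairs) for other mice of the same genotype. The genes named were all members, up to 5 genes of each list per comparison with the smallest adjusted p under 0.05, the genes Gp1ba, Gp6, Ppbp, Gata1, Gfi1b, Fli1, Slamf1 and Cdh5, and the 3 genes most like each member. Other genes were named as checks of labels, for overlap with a member, or after their values were seen. Some genes counted in the lists are not reported here. Ppbp, a granule chemokine, had a mean of 2.20 FPKM in WT CD150hi HSC. Its log2 difference between CD150hi HSC and CD150neg MPP was -0.69 in WT and -0.68 in 5A3+/del mice. Neither passed the threshold (limma adjusted p = 0.324 and 0.457). Alternatives covered the pseudocount (0.1), the filter, the scaling, the variance prior, the groups fitted, a mouse block, age as a covariate and each replicate left out.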

Additional observations from a re-analysis of the deposited data

Results flagged for a closer look

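In 13 of 108 groups of 4 or 5 libraries, 1 library stood far from the rest of its group, and chance alone gives about 5.4 (1 in 20 groups). For Itga2b these were replicate 1 of WT CD150lo HSC (0.8365 FPKM, the others 1.92 to 2.213), replicate 1 of 5A3+/del CD150hi HSC (8.535, the others 2.426 to 3.272) and replicate 5 of 5A3+/del CD150lo HSC (3.024, the others 1.684 to 2.043). Gp1bb was at 0.4236 FPKM in replicate 3 of WT CD150lo HSC and at 0 in the others.

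Xist was at 302.7, 233.7 and 319 FPKM in WT replicate 3, in order of falling CD150. These are 3 libraries of a single mouse.

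Summed levels of lists stood apart in 6 groups. The granule genes summed to 739 FPKM in replicate 1 of WT CD150hi HSC (the others 630.7 to 655.9), and the transcription factors to 636.6 in replicate 1 of 5A3+/del CD150neg MPP (481.5 to 506). Replicate 1 of WT CD150lo HSC had a sum of 1705 for granulocyte and monocyte markers (214.3 to 501.9) and of 55.17 for lymphoid markers (76.63 to 85.3). Replicate 5 of 5A3+/del CD150lo HSC had a sum of 207.1 for lymphoid markers (53.46 to 60.51) and of 990.2 for stem cell markers (1084 to 1105).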

How the results depend on the processing

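Of 222 counts of members under alternatives 217 were within 1.5 times of the reported count. These include the comparisons with a reported count of 0, where every alternative gave 0 as well. A change from 4 to 3 members, as in 5A3+/del CD150hi HSC against CD150neg MPP, also lay within 1.5 times. The 217 therefore say little about how firm single calls are. With a filter of 10 FPKM in 1 library, which left 3 members to test, limma called 0 members between CD150hi and CD150lo HSC in each genotype and 1 between CD150hi HSC and CD150neg MPP in each. Fitting only the groups compared left 1 member in WT CD150hi against CD150lo HSC. Of 604 alternatives for 34 single differences, 585 kept direction and side of the threshold, 15 lost the call, 4 gained it and 0 changed sign. Of the losses 14 were for Itga2b and 1 for Clec1b.

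With the mouse as a replicate block, 3 members passed between CD150hi and CD150lo HSC in WT and 3 in 5A3+/del mice, and 3 and 4 against CD150neg MPP. The pairing changed the calls of Itgb3, Itga2b, Selp, Mmrn1, Gng11 and Slamf1 given above and no other of the named differences, and it took the count of granule genes in WT CD150lo HSC against CD150neg MPP from 2 to 0.

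Counts over all genes moved more. For CD150hi against CD150lo HSC they ran from 291 to 628 (WT) and 292 to 602 (5A3+/del), and for CD150hi HSC against CD150neg MPP from 1022 to 1776 and 449 to 1036. Between CD150lo HSC and CD150neg MPP the range was 0 to 69 for WT mice and 0 to 8 for 5A3+/del mice. It was, between genotypes from 0 to 100, 0 to 74 and 0 to 8 along the CD150 gradient, and for genotype differences of steps from 0 to 13. Without further normalization the share of called genes that were higher in CD150hi HSC than CD150neg MPP was 48.3% of 1460 in WT (54.5% of 1548 reported) and 46.8% of 935 in 5A3+/del mice (52.4% of 949 reported). It was 1 of 2 genes higher in WT CD150lo HSC than CD150neg MPP (24 of 29 reported) and 0 of 6 in 5A3+/del than WT CD150neg MPP (1 of 7 reported). With median scaling 8 of 23 were higher in 5A3+/del than WT CD150hi HSC (5 of 24 reported). Gp6, Gata1 and Gp1bb had few fragments, as did Clec1b outside CD150hi HSC, which limits what these libraries can show of them.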
